A study of Mus musculus with 1505 samples.

Results

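Sncg cells were compared with Vip cells of the mouse primary motor cortex, cell by cell and gene by gene. Members were the cells whose deposited transcriptomic type (t-type) label begins with Sncg, 13 of the 1505 samples of the series, and those whose label begins with Vip, 152 samples. Both came from the 1320 samples recorded at room temperature, and each sample is 1 neuron, patched in an acute slice, recorded, filled and drawn into the pipette for Smart-seq2 sequencing of its RNA (Patch-seq). The 13 Sncg cells were recorded on 13 days and carry 4 labels: 5 Sncg Npy2r, 4 Sncg Col14a1, 2 Sncg Calb1_1 and 2 Sncg Calb1_2 cells. The Vip cells were recorded on 44 days and carry 12 labels, of which Vip Mybpc1_2 with 33 cells, Vip Gpc3 with 26 and Vip Sncg with 20 are the largest.

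The animals of the study were adult mice of both sexes, either wild-type C57Bl/6 or Cre driver lines crossed to the Ai9 reporter, among them Vip-Cre, Viaat-Cre, Npy-Cre and Slc17a8-Cre. One Patch-seq protocol served both groups, but the paper states that pipette size was chosen by the size of the neuron and that libraries were sequenced in separate batches. The groups also differed in period: 4 of the Sncg cells and 6 of the Vip cells were recorded in 2018, the rest in 2019. The labels give neither the mouse line, the age nor the animal of a cell, so a Vip cell may or may not have been picked for the reporter driven from the Vip gene, and cells of the same day may share an animal. Each group therefore counts as 1 sample in what follows, there is no test, and no p-value is given. The t-types were assigned from the same RNA, so a difference in a marker gene between the groups describes the labels and is not independent of them.

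Sncg cells are a small class of cortical inhibitory neurons that includes the cholecystokinin-expressing (CCK) basket cells, which place their synapses around the cell bodies of their targets. Their terminals carry the cannabinoid receptor CB1, the product of Cnr1, through which endocannabinoids released by the target silence the synapse. Vip cells release vasoactive intestinal peptide and mostly inhibit other inhibitory neurons, which frees pyramidal cells from inhibition. Both classes arise in the caudal ganglionic eminence, and types with mixed features, such as Vip Sncg, have been placed between them.

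The stretch before the transcription start is shown for 4 genes on which the comparison turns, the markers Sncg, Cck and Vip and Col25a1, which had the largest higher level among the genes named below. The sequences are the 150 bases just before the RefSeq start in GRCm38.p6, written 5′ to 3′ on the strand of the gene. RefSeq starts need not be those of the GENCODE M21 coordinates given below: the Col25a1 window lies inside the GENCODE gene, downstream of its start, and most of the Sncg window lies inside the GENCODE Sncg gene. Capitals mark TGACG or its reverse complement CGTCA, the core of the cAMP response element, searched on both strands; in all, 13.3% of the 32851 promoter windows of this length hold it.
Sncg (minus strand, chr14:34374670-34374819): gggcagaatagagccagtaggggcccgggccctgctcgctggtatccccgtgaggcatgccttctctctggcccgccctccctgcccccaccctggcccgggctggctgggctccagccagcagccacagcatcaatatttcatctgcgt
Cck (minus strand, chr9:121495695-121495844): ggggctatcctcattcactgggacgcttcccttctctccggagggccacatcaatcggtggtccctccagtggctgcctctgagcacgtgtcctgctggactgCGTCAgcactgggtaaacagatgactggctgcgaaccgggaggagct
Vip (plus strand, chr10:5639068-5639217): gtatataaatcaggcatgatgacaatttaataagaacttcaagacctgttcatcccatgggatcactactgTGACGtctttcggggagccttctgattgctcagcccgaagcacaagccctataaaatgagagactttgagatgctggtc
Col25a1 (plus strand, chr3:130180695-130180844): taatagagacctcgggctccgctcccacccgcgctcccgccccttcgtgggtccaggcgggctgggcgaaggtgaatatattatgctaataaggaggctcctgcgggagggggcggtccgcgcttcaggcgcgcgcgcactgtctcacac
The peptide genes Cck and Vip each hold 1 match, which begins 47 and 79 bases before the start, and the windows of Sncg and Col25a1 hold none. A match is a description of the letters and not of a bound site.

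Levels are given as CPM, the usual scaling of a gene's exonic counts by the total of its cell or group, without the ERCC spike-in rows, and a group's level is that of its summed counts: 20634169 counts for the Sncg cells and 196882316 for the Vip cells. The log2 fold change is that of CPM + 1, which understates the change of low genes. Exact Poisson 95% intervals of the sums are narrow and cover counting error only, since reads were amplified without molecular identifiers, so the spread over cells is the error that matters here. The Sncg cells were deeper on the median, with 602128 to 2783862 exonic counts and a median of 1601273, against 58440 to 5562171 and a median of about 1030400 in the Vip cells. They also yielded more genes, a median of 7941 (6810 to 10667) against 6119, and after each cell was thinned to 200000 exonic counts, which 149 Vip cells reach, still 6389 against 4944. The part of this difference in the gene counts below was not tested, and shares of cells with a read are at full depth unless thinning is named. Sncg Npy2r replicate 3 stood apart as the shallowest Sncg cell and had the lowest Cck and Cnr1 levels, and the results are therefore also given without it where it matters. No pair of cells had identical counts.

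The labels were first set against their markers. All 13 Sncg cells had reads of Gad1, the enzyme that makes GABA, at 594.7 to 2227 CPM with a median of 1399, against a median of 1401 in the Vip cells. Gad2 and the vesicular GABA transporter Slc32a1 were also read in all 13. Adarb2, an RNA-editing family gene that marks neurons of the caudal ganglionic eminence, was read in all 13 cells at 1407 to 9358 CPM. Of the 8 Lamp5 cell markers, Ndnf and Slc35d3 had no read in any Sncg cell and Lamp5 did not exceed 3.32 CPM, but Reln, Npy and Egln3, the 3 that could be compared, were higher than in Vip cells. The whole list summed to 1956 CPM in Sncg cells (316.0 to 5003 CPM per cell) and 465.0 CPM in Vip cells (0 to 10444 CPM), and its part in the results was not tested. Other caudal genes were less even. Prox1 had no read in both Sncg Calb1_1 cells and in Sncg Col14a1 replicate 2. Htr3a had none in both Sncg Calb1_1 cells and in Sncg Col14a1 replicate 4. All 13 cells thus held reads of the GABA genes and of Adarb2, which describes the labels, since these were assigned from the same RNA.

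The 3 genes that name the Sncg class separated the groups to different degrees, which the plot of 8 genes in each cell shows. Cnr1 (ENSMUSG00000044288, chr4:33924593-33948831, plus strand, mm10) was read in all 13 Sncg cells. Its level was 539.8 CPM in Sncg Npy2r replicate 3 and 3296 to 10066 CPM in the other 12 Sncg cells, with a median of 4448 CPM over all 13. The Vip cells had a median of 698.4 CPM and a 90th percentile of 2787 CPM, which 12 of the 13 Sncg cells exceeded. The summed level was 4896 CPM in Sncg cells and 1084 CPM in Vip cells, 4.51-fold apart, and leaving out any Sncg cell moved the log2 fold change of 2.17 only within 2.03 to 2.23. Only Sncg Npy2r replicate 3 lay inside the bulk of the Vip cells.

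Cck (ENSMUSG00000032532, chr9:121489824-121495694, minus strand), the precursor of cholecystokinin, was read in all 13 Sncg cells at 312.2 to 9752 CPM with a median of 2388 CPM. Vip cells had a median of 7.89 CPM, and 61.8% of them had a read. The sums, 2889 and 541.2 CPM, were 5.33-fold apart, a log2 fold change of 2.41 that came to 1.75 without Sncg Col14a1 replicate 1, the highest cell. Every Sncg cell lay above the Vip median, but only 7 of 13 lay above the Vip 90th percentile, so the groups overlapped. In Vip Sncg cells Cck reached 2674 CPM, close to the Sncg sum, and the cells with the Vip Sncg label had a median of 2144 CPM against 2.15 CPM in the other Vip cells.

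Sncg itself (ENSMUSG00000023064, chr14:34370274-34374789, minus strand), which encodes gamma-synuclein, was the weakest of the 3 in level. It had no read in 5 of the 13 Sncg cells, among them 3 of the 5 Sncg Npy2r cells, and lay between 29.1 and 114.9 CPM in the other 8. No cell of the other Vip t-types had a read of it, 0 of 132, and 6 of the 20 Vip Sncg cells did. After thinning to 200000 counts it was read in 8 of 13 Sncg cells, 61.5% with an exact binomial interval of 31.6% to 86.1%, and in 5 of 149 Vip cells, 3.36% with an interval of 1.10% to 7.66%. Lamp5 cells, which should lack the gene, gave 1 of 90 or 1.11%. A read of Sncg thus set a cell apart from most Vip cells, but its absence did not, at this depth, tell that a cell lacked the Sncg label.

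**Figure D1:**
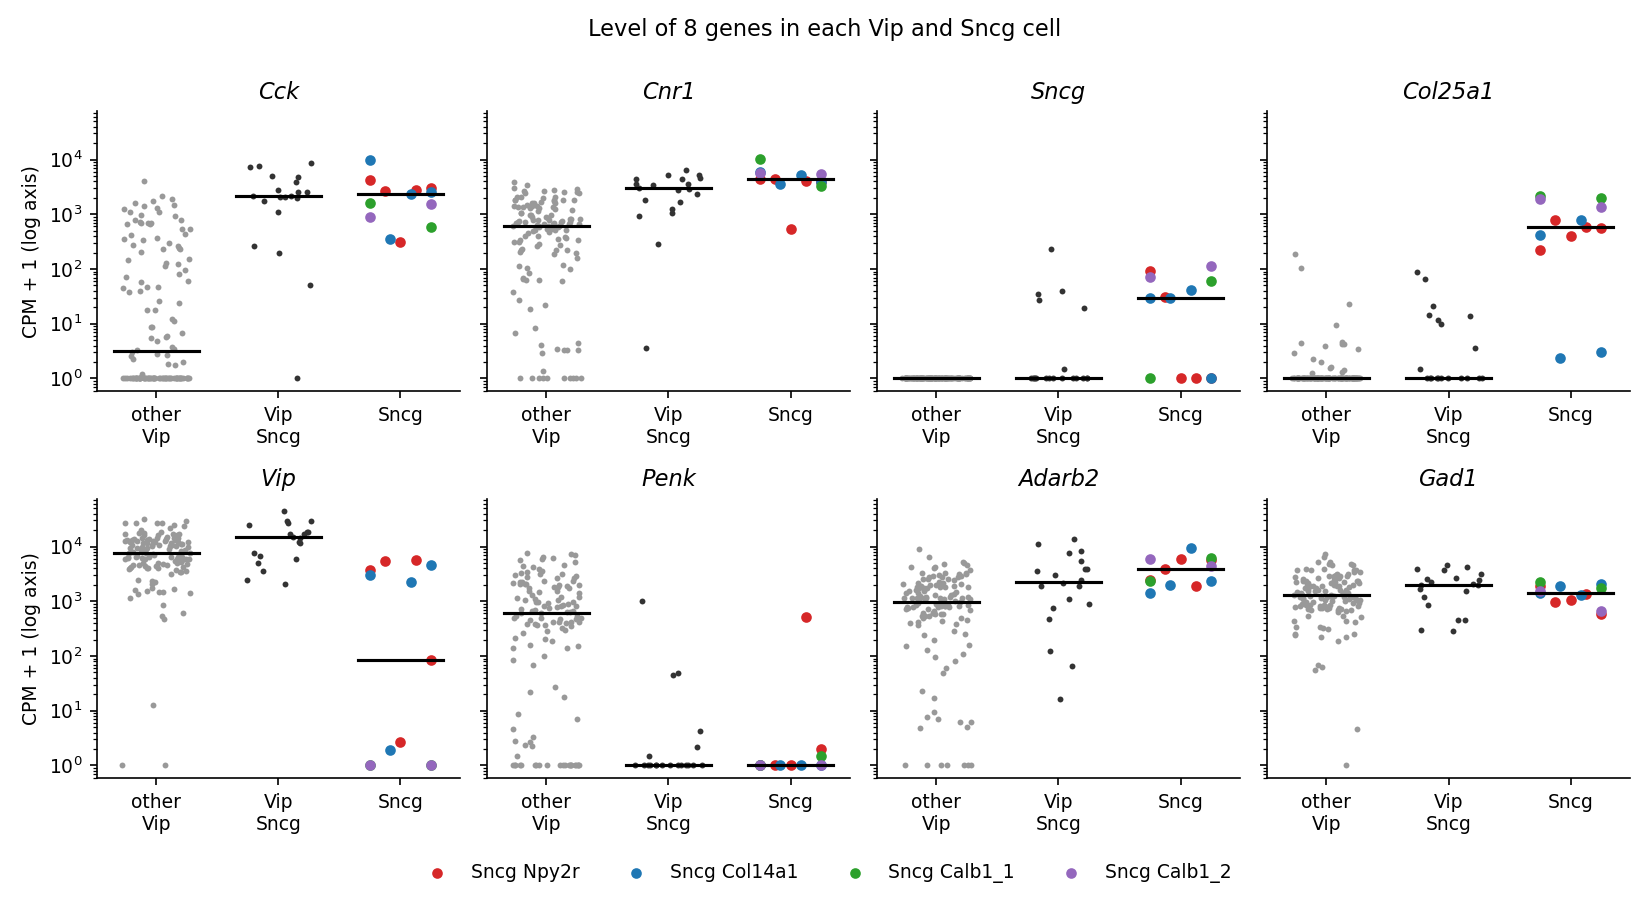
Level of 8 genes in every cell, as CPM + 1 on a log axis, for the 132 cells of other Vip t-types (grey), the 20 Vip Sncg cells (dark) and the 13 Sncg cells (coloured by t-type), with a black line at each group's median. Cck and Cnr1 were present in all 13 Sncg cells, Sncg in 8, and Vip lay either below 100 CPM or above 2000 CPM in a Sncg cell, while Gad1 had medians of 1312 CPM in the other Vip t-types, 2024 CPM in Vip Sncg and 1399 CPM in Sncg cells.

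Vip (ENSMUSG00000019772, chr10:5639218-5647617, plus strand) was lower in the Sncg cells but not absent from them. It measured 2239 to 5748 CPM in 6 cells, namely Sncg Npy2r replicates 1, 2 and 4 and Sncg Col14a1 replicates 1, 3 and 4, and 85.1 CPM in Sncg Npy2r replicate 5. Both remaining cells of these t-types had 0.93 and 1.66 CPM, and all 4 Sncg Calb1_1 and Sncg Calb1_2 cells had no read. The Vip cells had a median of 8234 CPM, so every Sncg cell lay below it. The sums of 1997 and 10042 CPM were 5.03-fold apart, and Vip was lower in the Sncg cell on all 7 days that hold cells of both groups. Thinned to equal depth, 7 of 13 Sncg cells had a Vip read, 53.8% (exact interval 25.1% to 80.8%), against 98.7% of Vip cells and 21.1% of Lamp5 cells.

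Penk, the precursor of enkephalins, divided the groups further. It was read in 76.97% of Vip cells, with a median of 437.7 CPM, and in 3 of 13 Sncg cells. Sncg Npy2r replicate 4 held 520.4 CPM and the other 2 held 1.001 and 0.47 CPM, so that the log2 fold change of -5.26 became -10.10 without replicate 4. Crh, the corticotropin-releasing hormone precursor, was at 51.7 to 535.6 CPM in 4 Sncg cells and without a read in the other 9, against a Vip median of 251.6 CPM. Its log2 fold change of -2.80 became -4.36 without Sncg Col14a1 replicate 1, and on the 7 shared days it was -0.82, short of 2-fold. Exons of Penk share bases with an antisense gene, and the reads carry no strand.

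The reverse held for neuropeptide Y. Npy measured 1356 CPM in the Sncg sum and 367.4 CPM in the Vip sum, a log2 fold change of 1.88 that came to 1.11 without Sncg Col14a1 replicate 1. It was read in 12 of 13 Sncg cells, at up to 4959 CPM, and 12 of them lay above the Vip median of 1.25 CPM. The Lamp5 cells, which include the neurogliaform cells, had more of it, 5996 CPM. Of the 22 peptide precursors listed, 7 were expressed highly enough to compare, of which Cck and Npy were at least 2-fold higher in Sncg cells and Vip, Penk and Crh at least 2-fold lower. Over all genes compared, 13.5% were higher and 9.16% lower by this rule.

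Across all genes, 6094 had at least 10 CPM and a read in at least 50% of the cells in the group with the higher level. Of these, 820 were at least 2-fold higher in Sncg cells, 13.5% of the genes compared, and 558 at least 2-fold lower, 9.16%. Without Sncg Npy2r replicate 3 the counts were 918 and 567. The median log2 fold change over all genes compared was 0.16, and 59.2% of them lay above 0. When medians over cells were compared in place of sums, this centre moved to 1.84 and the counts became 3823 higher and 301 lower. In 374 genes the higher level, and in 343 the lower, was also at least 2-fold in the mean of per-cell CPM and without each Sncg cell in turn.

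**Figure D2:**
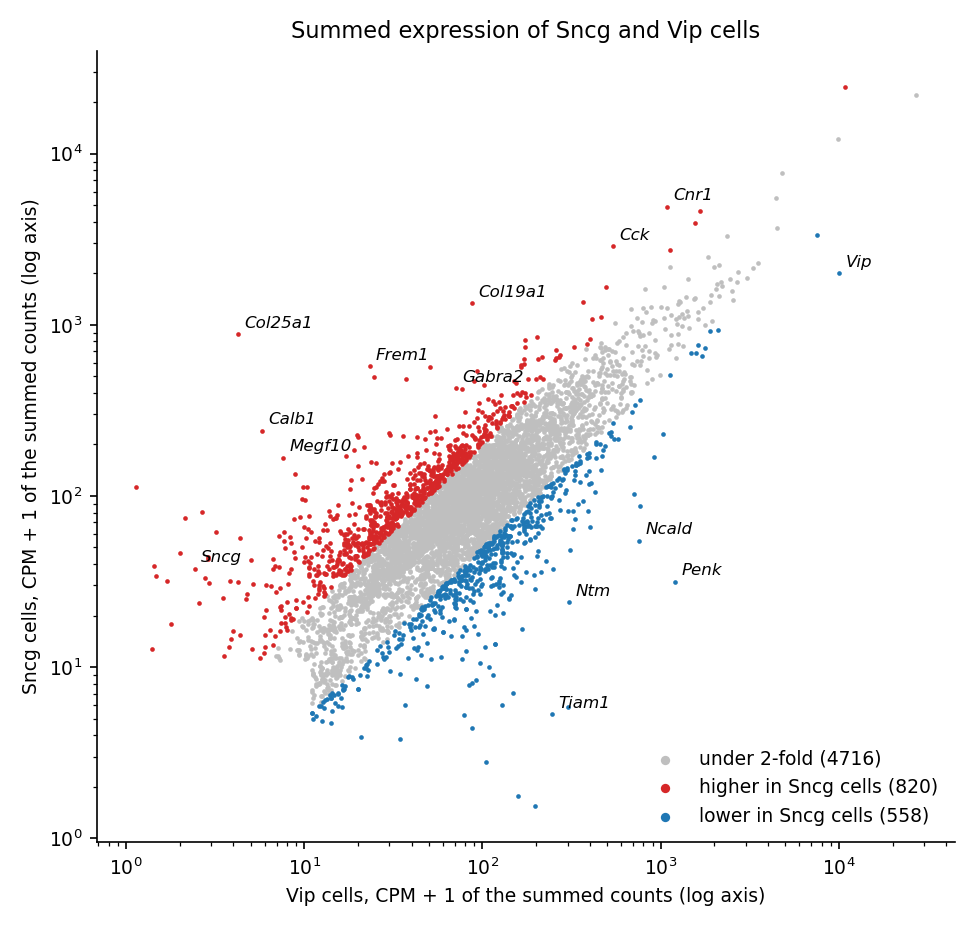
Summed level of each of the 6094 genes compared, in CPM + 1 on log axes, with Vip cells on the horizontal and Sncg cells on the vertical axis. The 820 genes at least 2-fold higher in Sncg cells are red and the 558 at least 2-fold lower are blue; Col25a1 lies farthest from the diagonal above it, at 884.3 against 3.25 CPM.

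The largest higher level among the genes that met these conditions at 50 CPM or more was that of Col25a1 (ENSMUSG00000058897, chr3:130131501-130599877, plus strand), a membrane-bound collagen of neurons. Its level was 1352 to 2166 CPM in the 4 Sncg Calb1 cells, 217.4 to 801.0 CPM in the 5 Sncg Npy2r cells, and 420.6, 1.39, 789.8 and 2.07 CPM in Sncg Col14a1 replicates 1 to 4. The Vip median was 0 CPM and the Vip 90th percentile 2.86 CPM, so that 11 of the 13 Sncg cells stood above nearly all Vip cells. Of the 152 Vip cells none reached the Sncg median of 584.2 CPM, the highest being at 187.2 CPM. The Vip Sncg cells, at 10.8 CPM in sum, did not share it, and the sums of Lamp5, Sst and Pvalb cells were 17.6, 101.5 and 51.6 CPM. Intronic reads gave a log2 fold change of 6.27 beside 7.70 from exons, and the Sncg cell was higher on 7 of 7 shared days.

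Other genes of the cell surface and the matrix followed. Frem1, an extracellular matrix protein, was at 573.5 CPM in Sncg and 22.3 CPM in Vip cells, with a read in 11 of 13 Sncg cells and 12.5% of Vip cells. Megf10, a receptor with EGF repeats, was read in all 13 Sncg cells, at 0.83 to 407.8 CPM, and in 7.89% of Vip cells. Col19a1, a fibril-associated collagen, ran from 42.05 to 3208 CPM with a Sncg median of 652.2 CPM. Reln, the secreted glycoprotein reelin, had a Sncg median of 279.8 CPM and lay above the Vip 90th percentile of 34.9 CPM in 11 of 13 Sncg cells. Each of these 4 genes was above 100 CPM in at least 1 cell of every Sncg t-type, but Frem1, Megf10 and Reln had few or no reads in some cells.

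Cadps2, which primes dense-core vesicles, was at 0 to 1630 CPM in Sncg cells with a median of 331.5 CPM and 23.7 CPM in the Vip sum, and it was highest in the 4 Sncg Calb1 cells. Among the other 8 genes of this set were the synaptotagmin Syt6, the teneurin Tenm4, the receptor phosphatase Ptprm, the cadherin Cdh9 and the potassium channel Kcnh7, with log2 fold changes of 2.97 to 3.52. Syt6 came to 2.53 without Sncg Calb1_1 replicate 2. The remaining 3 were Nell1, Lix1 and Mtcl1, at 3.48, 3.45 and 2.89.

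Among the genes at 50 CPM or more with a read in 75% of Vip cells, Tiam1, an activator of the small GTPase Rac, showed the largest lower level in Sncg cells. It did not exceed 20.7 CPM in any Sncg cell and had a Sncg median of 0.60 CPM, against a Vip median of 141.1 CPM, and all 13 Sncg cells lay below it. The log2 fold change was -5.52 and lay between -5.91 and -5.39 with each Sncg cell left out in turn. Ncald, a neuronal calcium sensor, ran from 0 to 214.8 CPM in Sncg cells and had a Vip median of 343.1 CPM, again with all 13 Sncg cells below it. Ntm, an adhesion molecule of the IgLON family, and Ap1s2, a subunit of the AP-1 clathrin adaptor, had log2 fold changes of -3.67 and -3.14. Ptprd, Fam3c, Igsf3, Rgs10, Vsnl1, Zbtb20 and Rab6a lay between -2.61 and -2.16. A single cell moved 5 of these values by over 1.5 times: Ncald came to -4.68 without Sncg Col14a1 replicate 1, Ptprd to -3.57 without Sncg Col14a1 replicate 4, Zbtb20 to -3.03 without Sncg Npy2r replicate 3, and Fam3c and Rgs10 to -3.29 and -3.01 without Sncg Calb1_1 replicate 1. In all, 12 of the 27 genes with the largest differences share exon bases with another annotated gene, among them Penk, Reln, Ncald and Rab6a, so part of their reads cannot be assigned with certainty.

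**Figure D3:**
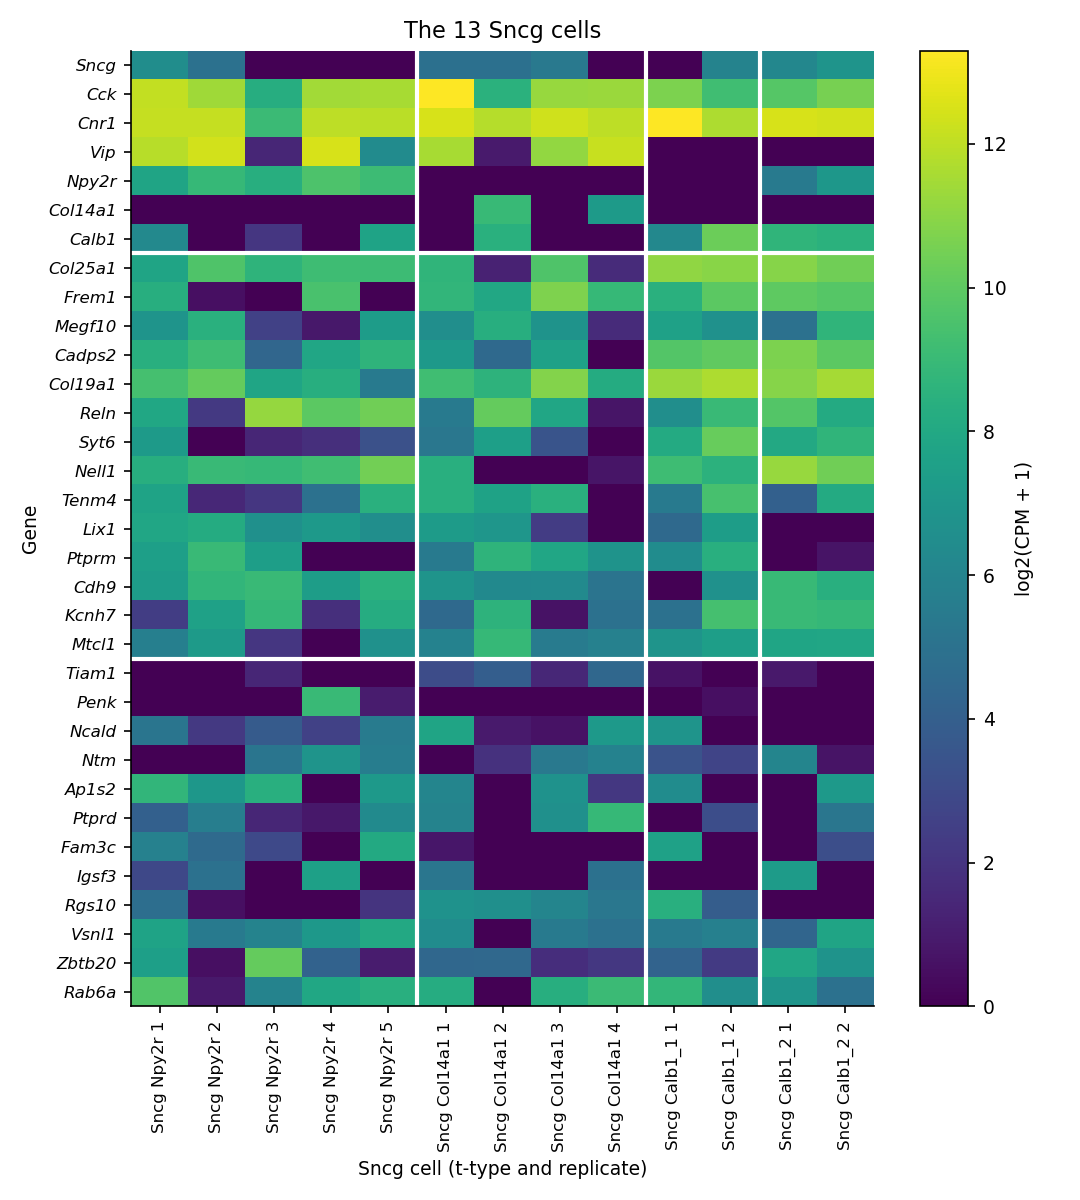
log2(CPM + 1) of the marker and t-type genes (top block), the 14 named genes with the largest higher levels (middle) and those with the largest lower levels (bottom) in each of the 13 Sncg cells, ordered by t-type. Cck and Cnr1 are bright in every column, Vip is dark in the 4 Calb1 columns, and Tiam1 and Penk are dark in nearly all columns.

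Of the 11 Vip cell markers measured, 5 had no read in any Sncg cell: Calb2, Mybpc1, Chat, Gpc3 and Htr1f. Calb2, the calcium-binding protein calretinin of many Vip cells, had 0 reads in the 13 Sncg cells. It was at 191.2 CPM in Vip cells, where 71 cells had a read. Taking 3 counts as a floor for its Sncg sum, the summed levels were 1315-fold apart. Such a ratio covers counting error only and is no lower bound over cells, since reads were amplified and came from part of the Vip cells. For Mybpc1 and Chat, the enzyme that makes acetylcholine, the ratios on the same floor were 499 and 355, with reads in 30 and 29 Vip cells. For Gpc3 the ratio was 231, with reads in 18 Vip cells. With reads in so few Vip cells, 13 cells may all lack such a gene by chance, which was not tested. These 4 genes were read in 11.8% to 46.7% of Vip cells, which is below the share required of the genes compared, so none is among the 558. Other markers of the list did not follow: C1ql1 had a log2 fold change of 1.16 and Serpinf1 of 0.24, both from few cells, the latter with 58.2 and 164.2 CPM in Sncg Col14a1 replicates 1 and 4. Tac2 was at 766.8 to 3170 CPM in 3 Sncg cells and without a read in the other 10.

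Some receptor genes for GABA and glutamate were higher in Sncg cells and some lower. Gabra2, the α2 subunit of the GABA-A receptor, was at 427.2 CPM in Sncg cells and 69.8 CPM in Vip cells, 6.04-fold apart, with 12 of 13 Sncg cells above the Vip median. The median log2 fold change of the 8 subunits compared was -0.53. In Vip Sncg cells Gabra2 was at 94.5 CPM, nearer to the other Vip cells. Among the 15 glutamate receptor genes compared, Grik5 and Grid1 were higher and Gria2, Gria4 and Grm7 lower. Of all genes compared, 13.5% were higher and 9.16% lower. Gria2, the subunit that limits calcium entry through AMPA receptors, was 2.33-fold lower, and 12 of 13 Sncg cells lay below the Vip median. Grik5 and Grid1 came to 0.96 and 0.75 without Sncg Npy2r replicate 2 and Sncg Calb1_1 replicate 2, Gria4 to -0.59 when cells were thinned, and Grm7 moved from -3.33 to -5.84 without Sncg Col14a1 replicate 4.

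Of the genes for GABA and glutamate synthesis and transport, 0 of 8 compared were 2-fold apart, against 13.5% higher and 9.16% lower of all genes. The log2 fold change was -0.52 for Gad1 and -0.34 for Gad2. In the vesicle release list 1 of 14 was higher, Syt6, and 1 lower, Cplx1, a complexin, which regulates vesicle fusion, at -1.21 or -0.72 on the shared days. Among synaptic organizers, Nrxn3, a presynaptic neurexin, was higher, at 1191 to 4461 CPM in Sncg cells, all 13 above the Vip median of 1031 CPM, with a log2 fold change of 1.28 that came to 0.69 in the cells of 2018. Erbb4, the neuregulin receptor of inhibitory neurons, and Cbln2 were lower, with log2 fold changes of -1.42 and -1.33, the latter -2.41 without Sncg Col14a1 replicate 1 but short of 2-fold on the shared days (-0.43) and in the cells recorded after 2018 (-0.77).

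Of the 14 endocannabinoid genes listed, 9 were compared, of which Cnr1 and Abhd6, a hydrolase of 2-arachidonoylglycerol, were higher and Plcb1, a phospholipase upstream of its synthesis, was lower, beside 13.5% and 9.16% of all genes. Plcb1 fell short of 2-fold for medians over cells (-0.89) and in the cells recorded after 2018 (-0.93). Abhd6 was 3.70-fold higher, less than 2-fold in the cells of 2018 (log2 fold change 0.75), with a read in 12 of 13 Sncg cells and a Vip median of 0 CPM. Dagla, which makes 2-arachidonoylglycerol, had no read in the Sncg cells and 26.7 CPM in Vip cells, where 48 cells had a read. On the floor of counts used above, the summed levels were 184-fold apart, which covers counting error only and is no lower bound over cells. Dagla was read in 31.6% of Vip cells, below the share required, so it was not among the genes compared. Faah and Mgll, the enzymes that degrade the main endocannabinoids, had log2 fold changes of 0.52 and -0.70. Of its own family, Sncb, beta-synuclein, had a log2 fold change of -0.80. The median log2 fold change of the endocannabinoid list was 0.16, as over all genes compared.

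Of the 34 voltage-gated potassium channel genes listed, 20 were compared, of which 8 were higher and 2 lower, against 13.5% and 9.16% of all genes, and the median log2 fold change was 0.62 against 0.16. Among the higher genes were Kcna2, Kcna3, Kcnd3, Dpp6, Kcnq5, Kcnh1 and Kcnh7. Kcnd3, which carries A-type current, was read in every Sncg cell, at 96.9 to 493.3 CPM, against a Vip median of 0 CPM, and it was higher on 7 of 7 shared days. Dpp6, a partner of these channels, was also higher on 7 of 7 days, while its relative Dpp10 was lower, at 27.4 against 197.0 CPM, a log2 fold change of -2.80 that became -4.17 without Sncg Npy2r replicate 2. The 2 lower genes were Dpp10 and Kcnab1. In the cells recorded in 2018, 4 Sncg and 6 Vip cells, Dpp6 had the opposite order, with a log2 fold change of -0.89.

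Of 10 sodium channel genes compared, 1 was higher, Scn3b, and 3 were lower, among them Scn9a and Fgf14, for which the difference of medians over cells lay above 0, at 0.16 and 0.045. Their log2 fold changes were -1.78 and -1.76, and Fgf14 came to -2.86 without Sncg Npy2r replicate 5 and to -0.07 with intronic counts added. Of 15 calcium channel genes compared, 4 were higher and 3 lower. Both channel lists stand beside 13.5% higher and 9.16% lower of all genes compared. Cacna1b, the pore of N-type channels, was at 253.7 CPM in Sncg and 82.9 CPM in Vip cells and lay above the Vip median in 12 of 13 Sncg cells. Cacna1a, the pore of P/Q-type channels, was at 10.8 against 44.01 CPM and was read in 3 of 13 Sncg cells and 56.6% of Vip cells; its log2 fold change of -1.93 became -3.10 without Sncg Calb1_2 replicate 2. Kcnn2, a small-conductance calcium-activated potassium channel, was at 630.1 against 169.3 CPM, with 11 of 13 cells above the Vip median. Several of these channel genes fell short of 2-fold under another setting: Kcna2 (0.66) and Kcnab1 (-0.67) on the shared days, Kcnq5 (0.55), Scn3b (0.91) and Kcnn2 (0.95) with intronic counts added, and Cacna1b (0.94) in the cells of 2018.

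**Figure D4:**
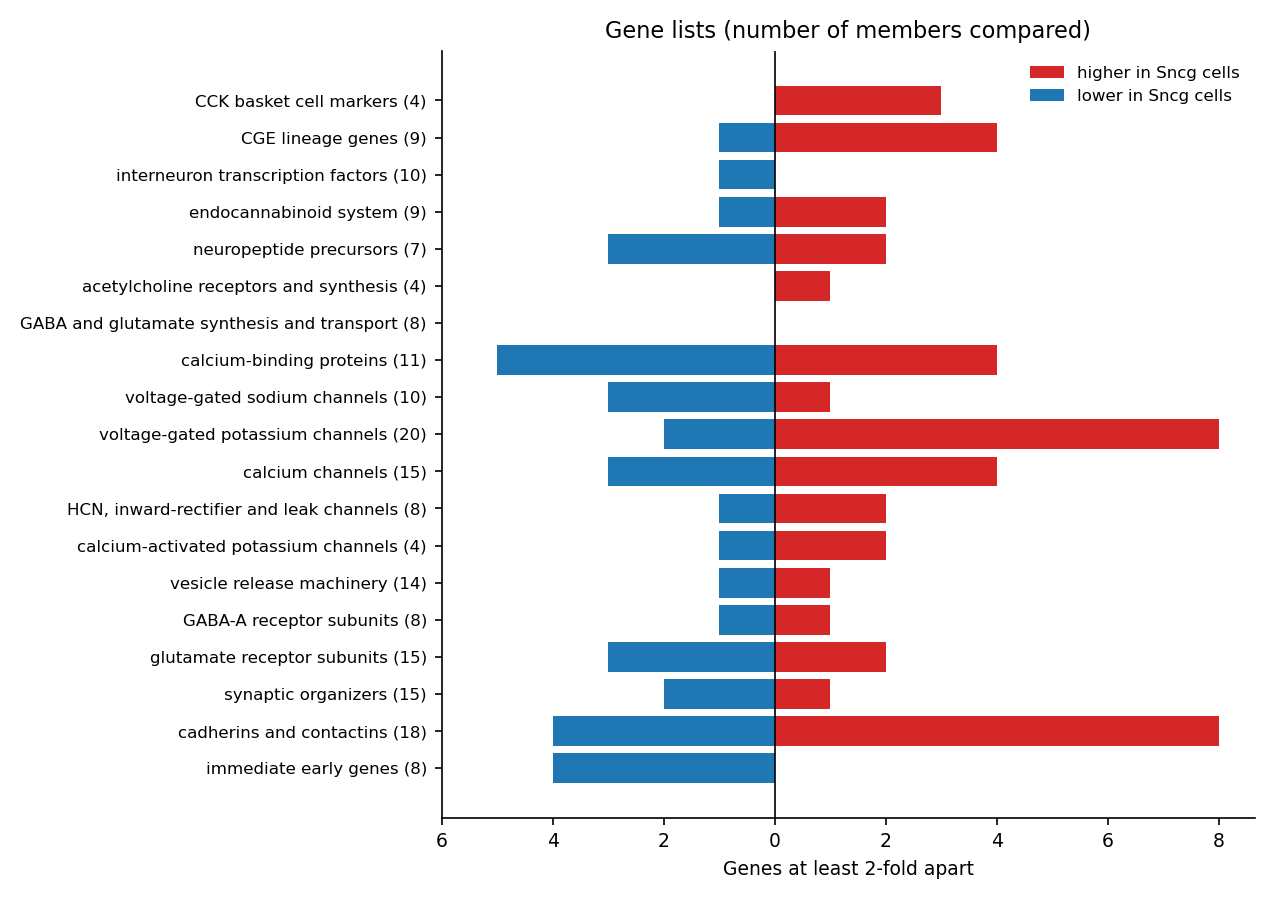
Number of genes at least 2-fold higher (red, to the right) and lower (blue, to the left) in Sncg cells for each list with 4 or more members compared, the number compared in brackets. Voltage-gated potassium channels and the cadherin and contactin list each held 8 higher genes, and immediate early genes held 4 lower and 0 higher. Of all genes compared, 13.5% were higher and 9.16% lower.

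Of 18 cadherins and contactins compared, 8 were higher and 4 lower, against 13.5% and 9.16% of all genes, with a median log2 fold change of 0.73 against 0.16. Pcdh20 was at 581.8 against 163.1 CPM. It was read in 13 of 13 Sncg cells, at 4.98 to 2666 CPM, while the median Vip cell had no read of it. Cdh6 and Cdh13 were less even, at 0.71 without Sncg Col14a1 replicate 3 and 0.72 without Sncg Col14a1 replicate 2, and both were lower in the cells of 2018 (-1.53 and -1.36). Calcium-binding proteins were split, 4 higher and 5 lower of 11. Calb1, calbindin, which names 2 of the Sncg t-types, was read in 8 of 13 Sncg cells at up to 1258 CPM and in 15.8% of Vip cells, a log2 fold change of 5.37 that came to 4.40 without Sncg Calb1_1 replicate 2. Caln1 was at 4.85 against 302.6 CPM, and all 13 Sncg cells lay below its Vip median of 33.6 CPM; its log2 fold change of -5.70 became -6.85 without Sncg Col14a1 replicate 2.

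Among genes of the caudal lineage, 4 of 9 compared were higher, namely Adarb2, Npas1, Npas3 and Sp8, and 1 was lower, Prox1, beside 13.5% and 9.16% of all genes. Npas1, a transcription factor, was at 214.3 to 1235 CPM in Sncg cells, all 13 above the Vip median of 126.9 CPM. Prox1, the homeobox factor that maintains the caudal lineage, had a log2 fold change of -1.23, or -0.86 for medians over cells, and lay below the Vip median in 11 of 13 Sncg cells. Htr3a, the ionotropic serotonin receptor, just missed the threshold with 0.99 and was absent from 3 Sncg cells, while Sncg Npy2r replicate 5 held 7975 CPM, and in the cells of 2018 it had the opposite order (-2.62). Sp8 came to 0.85 without Sncg Col14a1 replicate 4 and to -0.29 in the cells of 2018. Of the receptor lists, Chrna7, the α7 nicotinic subunit, was 6.60-fold higher, with a log2 fold change of 2.72 that came to 2.05 without Sncg Col14a1 replicate 2 and to 0.28 in the cells of 2018. Adcyap1r1 and Rxfp1 had log2 fold changes of 1.28 and 1.26, the latter 0.27 without Sncg Npy2r replicate 2, and Adcyap1r1 came to -0.33 in the cells of 2018.

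Immediate early genes, which mark recent activity and handling of the tissue, were lower in 4 of the 8 compared, Jun, Egr1, Nr4a1 and Ier2, and higher in 0, against 9.16% and 13.5% of all genes, with a median log2 fold change of -0.85. Egr1 ran from 31.04 to 675.4 CPM, against a Vip median of 387.0 CPM, and 8 of 13 Sncg cells lay below it. Its log2 fold change of -1.16 fell short of 2-fold when cells were thinned (-0.89), for medians over cells (-0.40) and in the cells of 2018 (-0.29). For Jun and Ier2 the difference of medians over cells lay above 0, at 0.08 and 0.21. Nr4a1 moved from -2.65 to -3.90 without Sncg Col14a1 replicate 3.

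Markers of other cells were present in both groups, and their part in the results was not tested. The 8 microglia markers summed to 279.5 CPM in Sncg cells, from 0 to 1313 CPM per cell, and to 963.8 CPM in Vip cells, from 0 to 21214 CPM. The oligodendrocyte list summed to 230.6 CPM, with Mog and Mag at 0, against 553.6 CPM in Vip cells. C1qa and C1qb of the first list and Mbp of the second were among the 558 lower genes. C1qa and C1qb moved from -1.21 and -1.66 to -2.49 and -3.00 without Sncg Col14a1 replicate 2, and Mbp ran from -2.07 without Sncg Calb1_1 replicate 2 to -0.82 without Sncg Col14a1 replicate 1. The excitatory list summed to 28.9 against 45.5 CPM, with Neurod2 at 0 in Sncg cells and Emx1 at 0 in both groups. The astrocyte list summed to 59.3 against 52.4 CPM, with Gfap, Fgfr3 and Gjb6 at 0 in Sncg cells. For oligodendrocyte precursors the sums were 17.2 against 29.4 CPM, with Olig2 and Gpr17 at 0 in Sncg cells. For the endothelial list they were 6.83 against 9.0003 CPM. Of its genes, Flt1, Kdr, Rgs5 and Vtn were at 0 in Sncg cells and Cldn5 in both groups. Among cells with under 500 CPM of all these markers, 8 Sncg and 47 Vip cells, a setting chosen after seeing the data, 1218 genes were higher and 819 lower, and C1qa had the opposite order, 1.15.

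The Vip Sncg cells were then placed on an axis between the groups. When the 100 genes most higher and the 100 most lower in Sncg cells were chosen without the Vip Sncg cells, and each cell was placed by the difference of its mean log2(CPM + 1) over both sets, with 0 at the median of the other Vip cells and 100 at that of the Sncg cells, the 20 Vip Sncg cells had a median of 44.8, quartiles of 25.4 and 58.01 and a range of -2.36 to 73.1. The other 8 Vip t-types with at least 5 cells, each left out in the same way, had medians of -9.25 to 13.4. The Sncg cells were each left out in turn on axes that kept all Vip cells, Vip Sncg included. They lay at 34.5 to 107.5 with a median of 66.02. This is below the mark of 100, which is set by the same cells that chose the genes. Each axis had its own genes and its own marks of 0 and 100, so positions from different axes are not on the same scale. Whether Vip Sncg and Sncg cells overlap cannot be read from them. Gene by gene, Vip Sncg cells were nearer to the Sncg than to the other Vip level in 38 of the 100 higher and 24 of the 100 lower genes.

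Vip Sncg cells shared the cannabinoid receptor and the peptide, but not the collagen. Their Cnr1 sum was 3178 CPM, and 5 of 20 cells exceeded the Sncg median, against 0 of 132 other Vip cells. Penk was read in 6 of 20 Vip Sncg cells, against 3 of 13 Sncg cells and 111 of 132 other Vip cells. Vip and Crh, in contrast, were at 17945 and 1547 CPM, above the Vip group as a whole, and Col25a1, Calb1 and Megf10 were at 10.8, 0.0802 and 6.06 CPM. Both labels that carry the name Sncg thus shared Cck, Cnr1, Npy and Reln and differed in Vip, Crh, Calb1 and Col25a1.

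**Figure D5:**
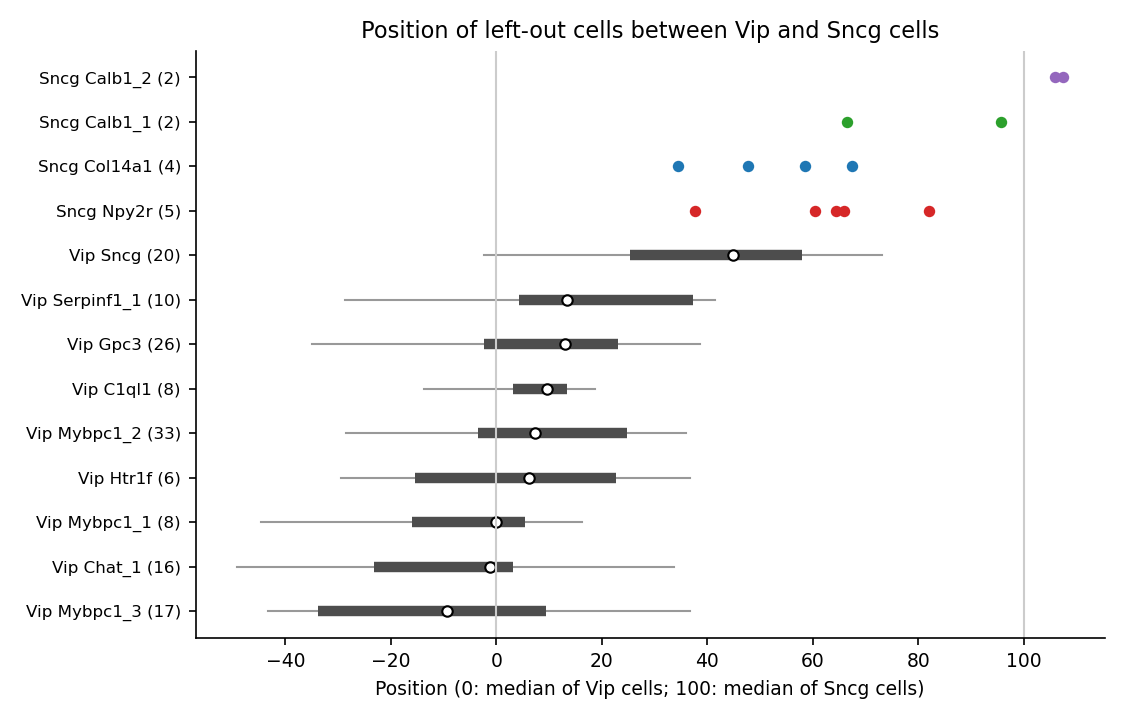
Position of left-out cells on the axis from the Vip median (0) to the Sncg median (100), set by 100 genes per side. The axis was set anew for each left-out t-type or cell, so positions are not strictly on the same scale. For each Vip t-type, bars give the quartiles, lines the range and circles the median, with the number of cells in brackets; points are single Sncg cells. Vip Sncg has a median of 44.8, and the Sncg Calb1_2 cells lie at 106.0 and 107.5.

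Whole profiles were compared next. With 1000 variable genes and profiles of 39 inhibitory t-types, leaving out cells of the same day, 7 of 13 Sncg cells correlated best with Sncg Npy2r, the only Sncg type with the 5 cells required of a profile, 4 with Vip Sncg and 2 with Lamp5 Egln3_1. Outside the Sncg class the nearest profile was Vip Sncg for 7 cells and Lamp5 Egln3_1 for 6, and no other t-type was nearest. Of the 4 Sncg Calb1 cells 3 were nearer to Lamp5 Egln3_1, and of the 4 Sncg Col14a1 cells 3 were nearer to Vip Sncg. The Sncg Npy2r profile rests on at most 5 cells, and on 4 when a cell of that type was itself placed. With 5 cells drawn per profile, 9 cells correlated best with Sncg Npy2r, and outside the class 5 were nearest to a Vip and 8 to a Lamp5 profile, the reverse order.

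The Sncg t-types differed among themselves in their naming genes, as the labels require. Npy2r, a receptor of neuropeptide Y, was at 219.5 to 765.7 CPM in the 5 Sncg Npy2r cells, without a read in the 4 Sncg Col14a1 and 2 Sncg Calb1_1 cells, and at 43.2 and 132.4 CPM in the 2 Sncg Calb1_2 cells. Col14a1 had reads only in Sncg Col14a1 replicates 2 and 4, at 505.2 and 148.3 CPM. Calb1 was at 73.4 to 1258 CPM in the 4 Sncg Calb1 cells, and also at 352.4 CPM in Sncg Col14a1 replicate 2 and 3.32 to 212.2 CPM in Sncg Npy2r replicates 1, 3 and 5. Npy2r and Calb1 were thus present in every cell named for them, and Col14a1 in 2 of 4.

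Between Sncg Npy2r and Sncg Col14a1, 37 genes lay higher without overlap of the cells on each side, 1.29% of the 2874 genes with a median of 50 CPM in Sncg Npy2r and 1.05% of the 3533 in Sncg Col14a1. With so few cells some genes separate in this way by chance, and how many do was not tested. The genes named here were taken for their large differences among those without overlap and are a description: beside Npy2r, Lims1, Tnfaip8l3 and Msmo1 on the Npy2r side, and Luzp2, Flrt2 and Kcnj3 on the Col14a1 side. Tnfaip8l3 was at only 1.66 CPM in Sncg Npy2r replicate 3, so its lack of overlap rests on that low level. It also reached 856.4 CPM in Sncg Calb1_2 replicate 1. Luzp2 was at 190.3 to 769.4 CPM in the 4 Sncg Col14a1 cells and at no more than 35.5 CPM in the 5 Sncg Npy2r cells. Flrt2, an adhesion molecule, was at 152.8 to 711.2 CPM and at most 7.46 CPM. Kcnj3, a G-protein-gated potassium channel subunit, was at 123.0 to 442.1 CPM and at most 111.9 CPM. Msmo1, an enzyme of sterol synthesis, was at 123.1 to 479.5 CPM in the Sncg Npy2r cells and at most 78.9 CPM in the Sncg Col14a1 cells.

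These types also differed in genes of the sex chromosomes. Xist, transcribed from the inactive X chromosome, was at 349.2 to 1602 CPM in the 4 Sncg Col14a1 cells, where 4 genes of the Y chromosome summed to at most 2.76 CPM. In Sncg Npy2r cells the 4 Y genes summed to 280.1 to 3282 CPM in 4 of 5 cells, and Xist was at 170.8 CPM in replicate 2, at 6.64 CPM in replicate 3 and without a read in the other 3. Replicate 2 had 0.911 CPM of the Y genes. But for that cell, the sex of the animal and the t-type cannot be told apart for this pair.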

How the data were processed

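The authors deposited a table of exonic and one of intronic read counts per gene and cell, from Smart-seq2 libraries without molecular identifiers; the submitters' processing notes name bcl2fastq 2.20, STAR 2.5.4b and mm10. The deposited counts were used as they are, without 85 ERCC rows and without 9 columns that match no sample. Counts were summed per group and scaled to CPM (Python 3.11.15, numpy 2.4.6, pandas 2.3.3, scipy 1.17.1). Genes needed 10 CPM and a read in 50% of cells in the higher group, and a call is 2-fold on the CPM + 1 scale. Each group is 1 sample, so no test was run. Exact Poisson intervals (95%) and the floor of 3 counts cover counting error only. Exact binomial intervals (95%) of the shares with a read take each cell as independent. Cells of the same day may share an animal, so these intervals describe the cells at hand and not animals. Genes detected and the shares with a read of Sncg and Vip are also given after thinning to 200000 exonic counts; other shares are at full depth. Named genes were the t-type and marker genes, list members, and the 15 largest differences per direction at 50 CPM, a read in 75% of cells and 2-fold without each Sncg cell and for means of per-cell CPM; Gm and Rik genes stayed unnamed. Members and lists were chosen with earlier results of these data known. Gene coordinates are GENCODE M21 and promoters RefSeq. Scripts were tested on simulated data. Excitatory cells were not analysed here, and a few genes are not reported here.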

Additional observations from a re-analysis of the deposited data

Results flagged for a closer look

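Within the Sncg Npy2r and Sncg Col14a1 cells, the only Sncg types with 4 or more cells, 73 values were examined and 17 had 1 cell far from the others by Dixon's criterion. Gene levels were taken on the log2(CPM + 1) scale and library measures as they are. The criterion flags about 1 in 20 for normally distributed values. Levels at or near 0 in some cells are not so distributed, so the 17 cannot be set against that rate. Among the Sncg Npy2r cells, replicate 3 was the low cell for Cck (312 CPM, the others 2684 to 4326), Cnr1 (540 CPM, the others 3913 to 4453) and Cadps2 (19.9 CPM), and the only cell with a read of Tiam1 (1 read, 1.66 CPM). Replicate 4 stood apart for Penk (520 CPM) and Ap1s2 (0 CPM), replicate 1 for the number of genes detected (10667, the others 6810 to 7744), and replicate 5 for C1ql1 (11.01 CPM). Among the Sncg Col14a1 cells, replicate 2 stood apart for Vip (0.926 CPM, the others 2239 to 4664), Calb1 (352 CPM), Mtcl1 (479 CPM) and Rab6a (0 CPM). Replicate 4 did so for Sncg (0 CPM), Tenm4 (0 CPM) and the share of ERCC reads (15.4%, the others 1.95% to 2.68%), and replicate 1 for Nell1 (334 CPM) and Fam3c (0.718 CPM, 2 reads). For Tiam1, Fam3c and Calb1 all other cells of the type were at 0, so the gap equals the range by construction, and for the first pair it rests on 1 and 2 reads.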

How the results depend on the processing

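The counts of 820 genes higher and 558 lower moved by over 1.5 times under these settings: 3823 and 301 for the difference of medians over cells, 2707 and 4357 with no filter on low values, 2983 and 1603 for the 2018 cells (4 Sncg, 6 Vip), 1371 and 1021 for the 7 days with both groups, 371 lower with a pseudocount of 10 CPM, and 891 lower with intronic counts added. Leaving out 1 Sncg cell gave 879 to 999 higher and 515 to 666 lower. The share of calls that were higher, 59.5%, became 92.7% for medians and 38.3% with no filter. Of 104 named genes called, 85 to 104 kept 2-fold across settings. These changed direction: for medians, Hpca (1.64), Hpcal4 (2.38), Scn9a (0.16), Fgf14 (0.045), Cacna2d1 (3.62), Kcnk2 (0.16), Cntn6 (0.0020), Jun (0.076) and Ier2 (0.21). For the 2018 cells they were Mbp (0.24), Sp8 (-0.29), Adcyap1r1 (-0.33), Dpp6 (-0.89), Cacng3 (-1.29), Kcnk9 (-0.22), Cdh6 (-1.53) and Cdh13 (-1.36). For the shared days they were Necab2 (-0.68) and Cntnap5a (-0.45). Among cells low in markers of other cells, a setting chosen after seeing the data, they were C1qa (1.15) and Cdh13 (-0.0045), and the microglia list median (1.40). The neuropeptide receptor median came to -0.75 with no filter and -0.33 for 2018. The cause was not tested. No paired analysis was possible because replicate numbers only name cells and no test was run, but the 7 days that hold both groups were compared within days by direction and as a setting of their own.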
